A study of Rattus norvegicus with 32 samples.

Results

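The hormone genes of enteroendocrine cells were described in the intestinal mucosa of Zucker rats. These were the 10 genes *Gcg*, *Pyy*, *Nts*, *Gip*, *Cck*, *Sct*, *Ghrl*, *Sst*, *Tph1* and *Chga*, out of 17245 genes with a probe set of their own. A gene was taken by the probe set whose only symbol is that gene, and each of the 10 had 1 such probe set. RNA of 32 male rats was measured on the Affymetrix Rat Gene 1.1 ST array, with 1 array per rat. Zucker-Lepr fa/fa rats (ZO) carry a leptin receptor that does not work and become obese, and Zucker lean Lepr+/fa rats (ZL) carry the same mutation on a single chromosome. The groups were 16 ZO rats after 30 days of a daily oral probiotic (ZO probiotic), 4 ZO rats after 30 days of placebo, 4 ZO rats at baseline, 4 ZL rats after 30 days of placebo and 4 ZL rats at baseline. The baseline rats were killed after the adaptation period and received no placebo, so that age and placebo cannot be told apart in the comparisons over time. The labels of the 16 probiotic rats name no strain, and the labels give all rats the same age, which was therefore not used. All values are probe set values on a log2 scale, on which a difference of 1 is a doubling of signal. Nearly all deposited values had lost their decimal point, which was restored behind digit 1, except in values that start with 10, 11, 12 or 13, where it belongs behind digit 2.

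Enteroendocrine cells are scattered hormone-secreting cells of the gut epithelium. They sense nutrients at the luminal surface and release peptides or serotonin into the blood and onto nerves, and which hormone they make changes along the gut. *Gip* and *Cck* are made mostly in the upper small intestine, whereas *Gcg* (the precursor of GLP-1 and GLP-2), *Pyy* and *Nts* are made mostly further down the gut. In mucosa as a whole, fewer cells of a type and less RNA per cell cannot be told apart.

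The promoter table of RefSeq (build GRCr8) held 7 of the 10 genes, with 250 bases before and 50 bases after the start of each gene. *Cck*, *Sct* and *Chga* were not among them. The promoters of *Gcg*, *Pyy*, *Nts* and *Gip* are shown because these genes moved most, or in opposite directions, on the array of 1 rat described next. They lie at chr3:67531484-67531783 (minus strand), chr10:87562421-87562720 (minus strand), chr7:39460839-39461138 (minus strand) and chr10:81464820-81465119 (plus strand). Each is printed 5′ to 3′, with matches in capitals to the TATA box (TATAAA), the GATA motif (GATAAG), the cAMP response element (TGACGTCA) and the AP-1 site (TGAGTCA), searched on both strands.
Gcg: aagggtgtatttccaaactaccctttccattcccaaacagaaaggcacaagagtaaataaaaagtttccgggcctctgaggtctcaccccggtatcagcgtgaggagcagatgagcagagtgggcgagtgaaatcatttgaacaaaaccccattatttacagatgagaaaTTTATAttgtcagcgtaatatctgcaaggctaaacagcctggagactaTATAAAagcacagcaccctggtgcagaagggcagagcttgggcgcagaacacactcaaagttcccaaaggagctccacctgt
Pyy: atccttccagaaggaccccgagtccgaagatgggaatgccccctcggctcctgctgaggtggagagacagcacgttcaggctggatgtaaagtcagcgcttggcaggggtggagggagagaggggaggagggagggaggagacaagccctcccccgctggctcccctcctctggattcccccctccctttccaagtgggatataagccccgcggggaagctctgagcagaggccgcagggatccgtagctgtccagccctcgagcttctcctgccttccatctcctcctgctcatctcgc
Nts: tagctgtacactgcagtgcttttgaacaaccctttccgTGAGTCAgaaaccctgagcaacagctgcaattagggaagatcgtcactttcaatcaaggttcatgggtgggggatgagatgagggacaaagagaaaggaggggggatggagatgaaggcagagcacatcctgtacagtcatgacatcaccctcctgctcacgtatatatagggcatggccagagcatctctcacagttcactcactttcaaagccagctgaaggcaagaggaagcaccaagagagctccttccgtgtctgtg
Gip: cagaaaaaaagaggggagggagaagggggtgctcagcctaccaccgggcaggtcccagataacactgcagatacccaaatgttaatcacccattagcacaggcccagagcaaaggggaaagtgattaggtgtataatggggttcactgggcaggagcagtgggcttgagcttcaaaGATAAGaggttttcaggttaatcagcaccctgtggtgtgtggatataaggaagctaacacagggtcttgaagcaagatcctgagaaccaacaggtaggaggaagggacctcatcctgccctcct
A match describes letters and not a site of binding. Among the 7 promoters the exact letters TATAAA were found only in that of *Gcg*, where the nearer match began 32 bases before the start. Another, on the opposite strand (printed as TTTATA), began 80 bases before it. Of all 33469 promoters in the table, 14.2% hold these letters on either strand. Other forms of the TATA box were not searched, so promoters with no match may still hold one. The GATA motif was found only in the promoter of *Gip*, 74 bases before the start (7.05% of all promoters). The AP-1 site was found in the promoters of *Nts*, 212 bases before the start, and *Tph1*, 199 bases before it (4.63% of all). The cAMP response element was found only in that of *Sst*, where it began behind the annotated start, at base 3 counted from it (1.83% of all). The E box (CANNTG), not capitalised, was found in 7 of 7 promoters, against 72.1% of all.

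One array, that of the ZL placebo rat C13, stood apart in these genes. On C13, 8 of the 10 genes lay outside the range of the other 31 arrays, against 13.9% of all 29214 probe sets. *Pyy* was at 5.17 in C13, against 8.30 to 10.00 on the other arrays, a difference of -4.19 from their mean. *Nts*, the precursor of neurotensin, was at 7.56 in C13, against 8.94 to 10.21, and *Gcg* at 10.14, against 10.59 to 11.91. *Sct*, which encodes secretin, the hormone that stimulates bicarbonate secretion by the pancreas, was at 5.18 in C13, against 5.93 to 7.30. *Chga*, the secretory granule protein chromogranin A, was at 8.30, against 8.44 to 9.27. These 5 genes were lower in C13 than in any other rat. *Gip*, an incretin, was at 7.29 in C13, against 5.22 to 6.84 in the other rats. *Cck*, cholecystokinin, which contracts the gallbladder, was at 7.32, against 5.17 to 6.87. *Ghrl*, ghrelin, was at 5.60, against 4.32 to 4.83. These 3 genes were higher in C13 than in any other rat, so that the hormones shifted in both directions. *Sst* and *Tph1* lay inside the range of the other arrays.

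Genes that mark the length of the intestine moved on the same array. *Fabp6*, the ileal bile acid-binding protein, was at 8.71 in C13, against 12.99 to 13.41 in the other rats. *Slc10a2*, the ileal bile acid transporter, was at 7.01, against 9.11 to 11.94. Of 9 ileal markers 6 were below all other arrays and 0 above, with a mean level of the list of 9.10 in C13 and 10.30 to 11.34 elsewhere. Of 13 markers of the proximal small intestine 5 were above all other arrays and 0 below, among them *Gata4*, a transcription factor of the proximal epithelium, at 10.24, against 7.04 to 9.75. *Fgf19*, the bile acid-induced ileal hormone, was at 3.61 in C13, against 6.65 to 11.47. Colon markers moved in both directions, with 2 of 10 above all other arrays and 2 below. *Aqp8* was at 8.49 in C13, against 3.75 to 6.35, and *Car4* at 11.03, against 9.65 to 10.97. *Best2* was at 3.83, against 5.26 to 8.32, and *Slc26a3* at 11.13, against 11.54 to 12.05. A region was named above only for *Gcg*, *Pyy*, *Nts*, *Gip* and *Cck*, and not for *Sct*, *Chga* and *Ghrl*, which also lay outside the range. The part of gut position in the hormone values of C13 was not tested. Further genes of the same cells were also outside the range: the granin *Chgb* (8.85 in C13, against 9.08 to 9.88), the granin *Scg2* (5.11, against 6.33 to 7.04) and *Rfx6*, a transcription factor of enteroendocrine cells (5.34, against 5.61 to 6.38), were below it. *Nmu*, neuromedin U, a neuropeptide, was at 9.18 in C13, against 5.42 to 7.40 elsewhere. In all, 4 of 10 measured granin and processing genes and 4 of 13 transcription factors were below the other arrays and 0 above.

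**Figure D1:**
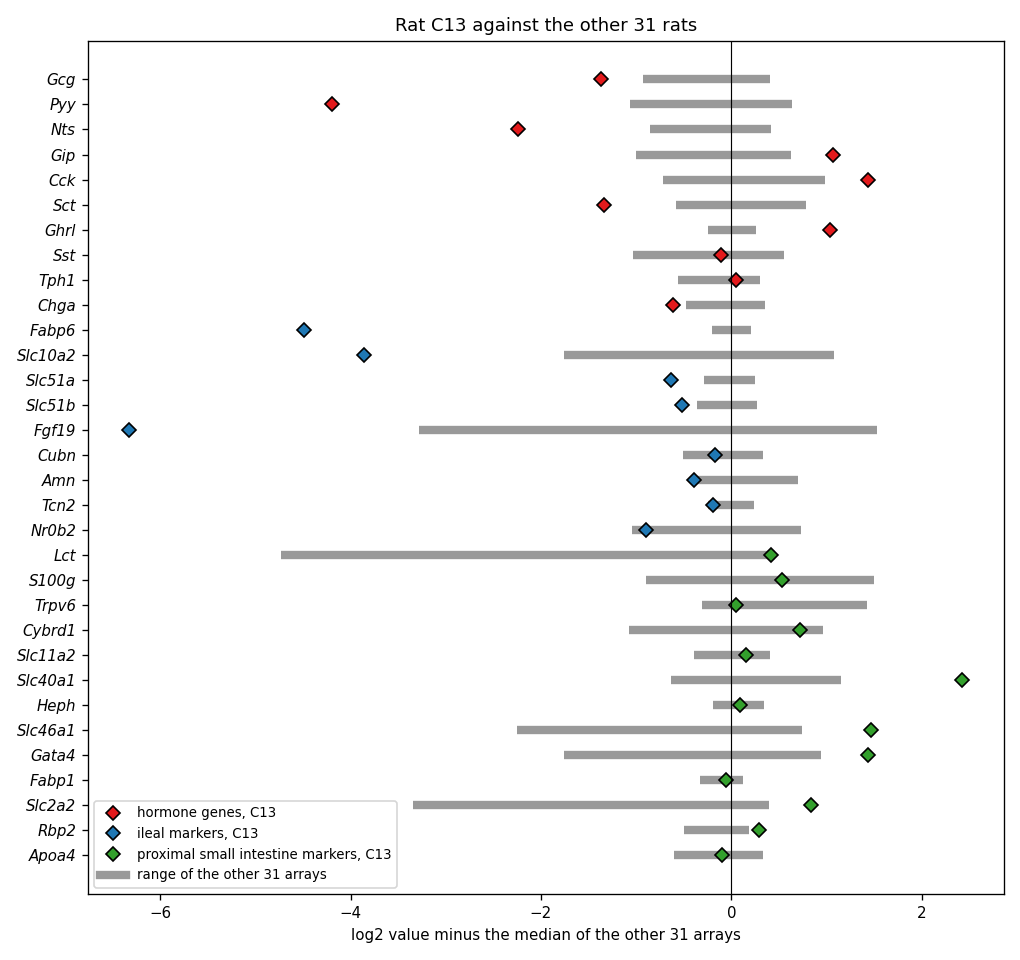
Log2 value of rat C13 (diamonds) minus the median of the other 31 arrays for the 10 hormone genes, the 9 ileal markers and the 13 proximal markers, with the range of the other 31 arrays as grey bars. *Pyy*, *Nts* and *Fabp6* lie far to the left of their bars, and *Gip*, *Cck*, *Ghrl* and *Slc40a1* to the right.

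C13 was not the only array with many probe sets outside the range of the others. The share was 16.4% on the array of ZL baseline rat C3, 14.4% on that of ZL baseline rat C1 and 14.7% on that of ZO probiotic rat Z46, with a median of 4.59% over the 31 arrays. C1 and C3 held 0 of the 10 genes outside. On Z46 4 genes were above all other arrays, *Pyy* at 10.00, *Nts* at 10.21, *Sst* at 9.72 and *Chga* at 9.27. On 23 of the 31 arrays 0 genes were outside and on 6 arrays 1 gene. The 2 others were Z46 and ZO baseline rat Z1, which had the lowest *Gip* (5.22) and the lowest *Sst* (8.12). In Z1 the proximal markers had the lowest mean level of all rats (8.71), and the ileal markers were at 10.95. Each result is given with C13 and without it.

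The comparison of obese with lean rats after 30 days of placebo had 0 of 10 genes past the threshold (limma, adjusted p under 0.05 over all probe sets), against 1.04% of all probe sets. Without C13 the counts were 0 and 0.64%. *Gcg* had the lowest adjusted p of the 10 with C13, and *Cck* without it (log2 fold change 0.62, adjusted p = 0.355, and 0.17 with an adjusted p of 0.895 with C13). *Gcg* was at 11.75, 11.65, 11.59 and 11.50 in the 4 ZO placebo rats, and at 11.43, 10.14, 11.38 and 10.95 in the 4 ZL placebo rats. All ZO rats lay above all ZL rats, and the log2 fold change was 0.65, with a standard error of 0.19 and a limma adjusted p of 0.106. Without C13 this was 0.37 (standard error 0.16, adjusted p = 0.45), and with C13 but without ZL placebo rat C11 or C15 it was 0.80 and 0.78 (adjusted p = 0.0348 and 0.0457). *Pyy*, which encodes peptide YY, an inhibitor of appetite and gut motility, was at 9.78, 9.38, 9.60 and 9.28 in ZO placebo rats, and at 8.99, 5.17, 9.07 and 9.13 in ZL placebo rats. The log2 fold change was 1.42 (standard error 0.48, adjusted p = 0.188) with C13 and 0.45 (standard error 0.23, adjusted p = 0.573) without it. *Nts* was at 9.95, 9.91, 10.05 and 9.80 in ZO placebo rats, and at 9.68, 7.56, 9.64 and 9.61 in ZL placebo rats. Its log2 fold change was 0.81 with C13 and 0.29 without (adjusted p = 0.14 and 0.375). For these 3 genes the ranges of the groups did not overlap, against 7.9% of all probe sets. Without C13 they did not overlap for 5 genes, *Cck* and *Gip* being added, against 12.4% of all.

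At baseline, 0 of 10 genes passed between obese and lean rats with all arrays (0% of probe sets) and 0 without C13 (0.00342%). *Gcg* was at 11.26, 11.50, 11.44 and 11.89 in ZO baseline rats, and at 11.01, 11.41, 10.59 and 11.15 in ZL baseline rats. The ranges overlapped, and the log2 fold change was 0.48 (standard error 0.19, adjusted p = 0.338, and 0.263 without C13). For 0 of the 10 genes were the ranges separate, against 3.6% of all probe sets. Because the log2 fold change of *Gcg* was positive at both times, the difference was also averaged over both, a contrast added after these values had been seen. *Gcg* was then the only 1 of the 10 genes that passed, at a log2 fold change of 0.57, a standard error of 0.14 and a limma adjusted p of 0.0299, against 1.21% of probe sets. Without C13 it was 0.43 (adjusted p = 0.0564), and 0 genes passed, against 0.852%. The call was also lost when any of 7 other rats was left out, C1, C3, C16, Z4, Z11, Z13 or Z15, with adjusted p between 0.0566 and 0.0855 without 1 of them. With all arrays *Rfx6* passed in the same contrast (log2 fold change 0.36, limma adjusted p = 0.0442), as did the colon marker *Best2* (1.34, limma adjusted p = 0.0479). Neither passed without C13, and both genes were lower on C13 than on any other array. Values of several marker lists lay lower in ZO rats at 1 or both of the times. The 7 smooth muscle markers had a mean level of 6.1 to 6.67 in ZO placebo rats, and of 6.01 to 7.10 in ZL placebo rats, and 0 of 7 had a positive log2 fold change, at baseline as well (0 passed). The 8 tuft cell markers were at 6.29 to 6.34 in ZO placebo rats and at 6.76 to 7.69 in ZL placebo rats without C13 (5.75 in C13), with 1 of 8 positive and a median log2 fold change of -0.86 without C13 and -0.41 with it, while at baseline 8 of 8 were positive with a median of 0.03. The 13 proximal markers were at 8.71 to 9.80 in ZO baseline rats and at 9.42 to 9.78 in ZL baseline rats, with 1 of 13 positive and a median of -0.41. On placebo they were at 9.67 to 9.69 in ZO rats and at 9.45 to 9.76 in ZL rats without C13 (10.31 in C13). There 6 of 13 were positive with C13. The part of these lists in the difference of *Gcg* was not tested.

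**Figure D2:**
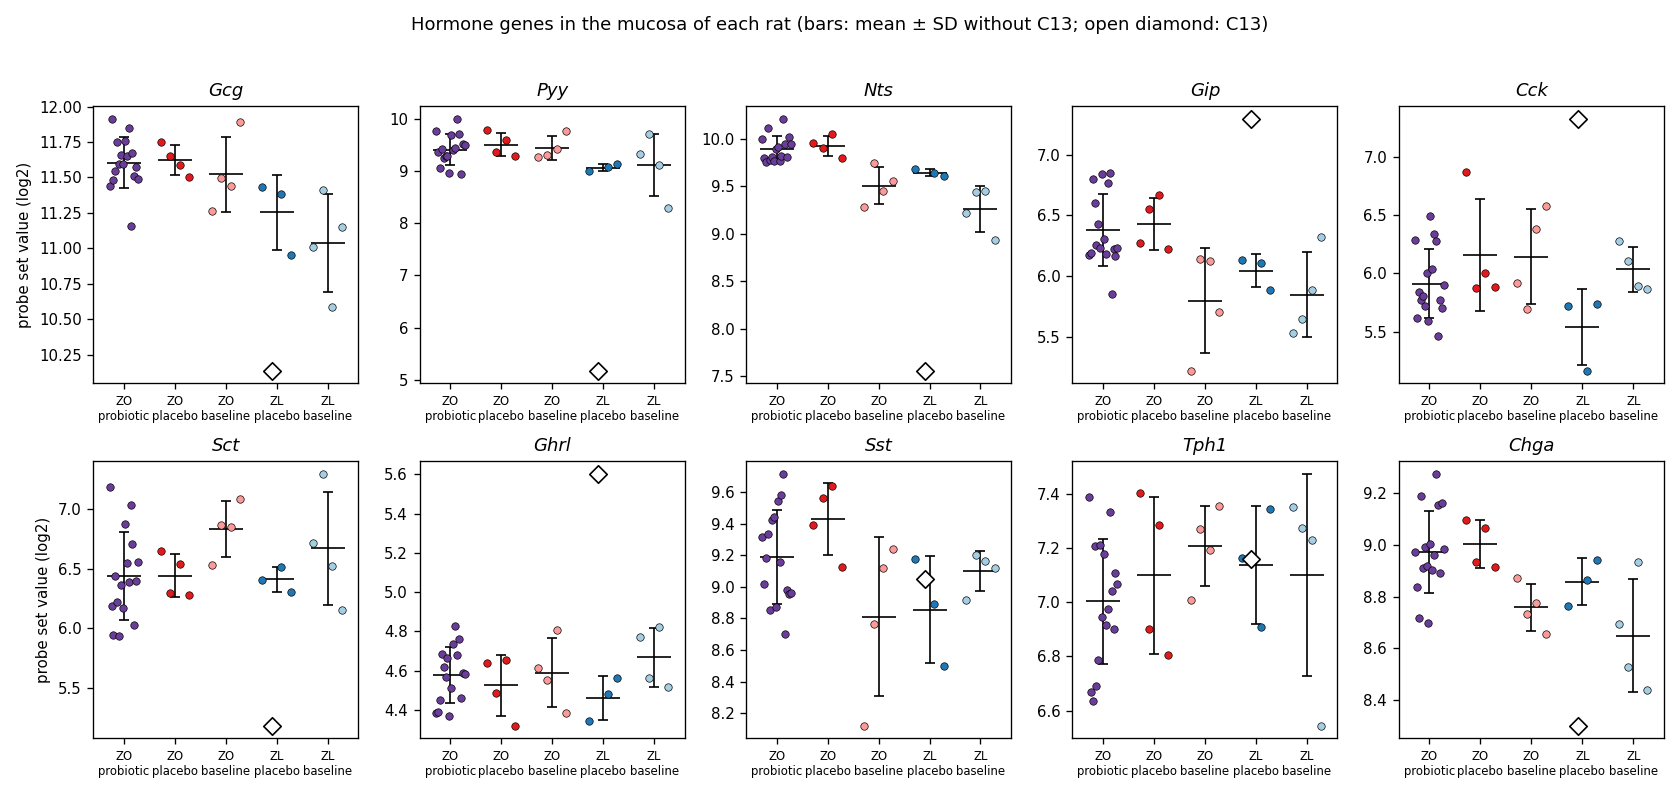
Log2 probe set value of each of the 10 genes in every rat (points), by group, with the mean and SD of each group without C13 (n = 16 ZO probiotic rats, 4 rats in each other group, 3 in ZL placebo) and C13 as an open diamond; the vertical scales differ between genes. *Nts* is highest in the ZO rats of the 30-day groups, and C13 lies outside the range of all other rats in 8 of the 10 genes.

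Over 30 days of placebo in obese rats, 0 of 10 genes passed with all 32 arrays, against 1.36% of probe sets. Without C13, 1 gene passed, against 1.66%. This was *Nts*, at 9.95, 9.91, 10.05 and 9.80 in ZO placebo rats, and at 9.28, 9.74, 9.45 and 9.56 in ZO baseline rats. All placebo rats lay above all baseline rats. The log2 fold change was 0.42 in both fits, or 1.34-fold. Its standard error was 0.25 with C13 (adjusted p = 0.55) and 0.11 without it (adjusted p = 0.0368). C13 lies in neither group compared, but the model takes 1 estimate of spread from all groups. *Gip* was at 6.28, 6.56, 6.67 and 6.23 in ZO placebo rats, and at 5.22, 6.14, 6.12 and 5.71 in ZO baseline rats. The groups did not overlap, but the log2 fold change of 0.63 did not pass (adjusted p = 0.253 with C13 and 0.13 without it). *Sst*, somatostatin, an inhibitor of other gut hormones, was at 9.39, 9.56, 9.64 and 9.13 in ZO placebo rats, and at 8.12, 8.76, 9.12 and 9.24 in ZO baseline rats, with a log2 fold change of 0.62 (adjusted p = 0.16). For 3 genes, *Gip*, *Nts* and *Chga*, the ranges were separate, against 9.98% of all probe sets. The proximal markers had a mean level of 9.67 to 9.69 in ZO placebo rats, and of 8.71 to 9.80 in ZO baseline rats, and the smooth muscle markers one of 6.1 to 6.67 in placebo and 5.37 to 6.54 in baseline rats. The tuft cell markers were at 6.29 to 6.34 in ZO placebo rats and at 6.69 to 7.69 in ZO baseline rats (0 of 8 positive, median log2 fold change -0.88), and the 5 goblet cell markers at 11.78 to 12.06 in placebo and 12.21 to 12.34 in baseline rats (1 of 5 positive, median -0.11). The ranges of the tuft and goblet cell lists did not overlap. In the goblet cell list *Spink4* had a log2 fold change of -1.58, far from the median of the list. How often lists of other genes separate in this way was not computed. The part of these marker lists in the differences was not tested.

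In lean rats 0 of 10 genes passed over the same time (0.911% of probe sets, and 0.288% without C13). *Pyy* had a log2 fold change of -1.02 (adjusted p = 0.277) with C13, and of -0.05 (adjusted p = 0.946) without it. *Nts* was at 9.68, 7.56, 9.64 and 9.61 in ZL placebo rats, and at 9.22, 9.44, 9.45 and 8.94 in ZL baseline rats. Its log2 fold change was -0.14 with C13 and 0.38 without (standard error 0.12, adjusted p = 0.139), so that 1 rat set its sign. With C13, the ranges overlapped in all 10 genes (5.88% of probe sets were separate), and without C13 they were separate in *Nts* and *Cck* (9.6%). The difference between the 30-day changes of ZO and ZL rats passed in 0 genes with C13 and in 0 without it (0.00342% of probe sets in both). The largest such difference without C13 was that of *Sst*, at 0.86 (standard error 0.31, adjusted p = 0.461). Averaged over both genotypes, a contrast added later, 0 genes passed with all arrays (4.02%), and *Nts* passed without C13 (3.13%), where its log2 fold change was 0.40 (standard error 0.08, adjusted p = 0.00426). With all arrays *Nts* had 0.14 (adjusted p = 0.704) and *Gip* 0.57 (adjusted p = 0.0577). *Gip* passed there when ZL baseline rat C4 (0.65, adjusted p = 0.0252), ZL placebo rat C16 (0.65, adjusted p = 0.0363) or ZO baseline rat Z2 (0.63, adjusted p = 0.0427) was left out.

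After a probiotic, 0 of 10 genes passed in obese rats relative to placebo, against 0.00342% of probe sets, with C13 and without it. The fitted differences ran from -0.25 for *Cck* to 0.05 for *Ghrl*. Their 95% intervals lay between -0.88 and 0.68 with all arrays, and between -0.61 and 0.37 without C13. The 16 rats pool several probiotic treatments, so differences between treatments cannot be seen in these values. *Gcg* ranged from 11.16 to 11.91 with a median of 11.60 in the 16 ZO probiotic rats, and from 11.50 to 11.75 with a median of 11.62 in the 4 ZO placebo rats. *Pyy* ranged from 8.94 to 10.00 (median 9.41) in ZO probiotic rats, and from 9.28 to 9.78 (median 9.49) in ZO placebo rats. The groups overlapped in all 10 genes, against 0.0685% of probe sets that were separate. A p that misses the threshold does not show that the groups were alike, and the interval for *Pyy* without C13 ran from -0.44 to 0.25.

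Set against lean placebo rats, the ZO probiotic rats had 3 of 10 genes past the threshold with all arrays, against 4.66% of probe sets, and 0 without C13, against 2.34%. *Gcg* was higher by a log2 fold change of 0.63 (standard error 0.15, adjusted p = 0.0125), *Nts* by 0.77 (standard error 0.20, adjusted p = 0.0206) and *Pyy* by 1.32 (standard error 0.38, adjusted p = 0.0391). Without C13 these were 0.35, 0.25 and 0.35, with adjusted p = 0.194, 0.189 and 0.425. The 3 calls therefore rested on C13. Without rat Z46, the only ZO probiotic rat that was left out in turn, the call of *Pyy* was also lost (log2 fold change 1.28, adjusted p = 0.0509). The ranges were separate in 1 gene, *Nts*, against 1.4% of probe sets with C13 and 2.44% without it. *Nts* ranged from 9.76 to 10.21 with a median of 9.86 in the 16 ZO probiotic rats, and its highest value in ZL placebo rats was 9.68. The 20 ZO rats of the 30-day groups were together at or above 9.76, and the other 12 rats at or below 9.74, a division seen after the values were known and shared by 0.243% of all probe sets. ZO probiotic and ZO placebo rats share their comparison group, the ZL placebo rats, so these results are not independent of those for placebo.

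**Figure D3:**
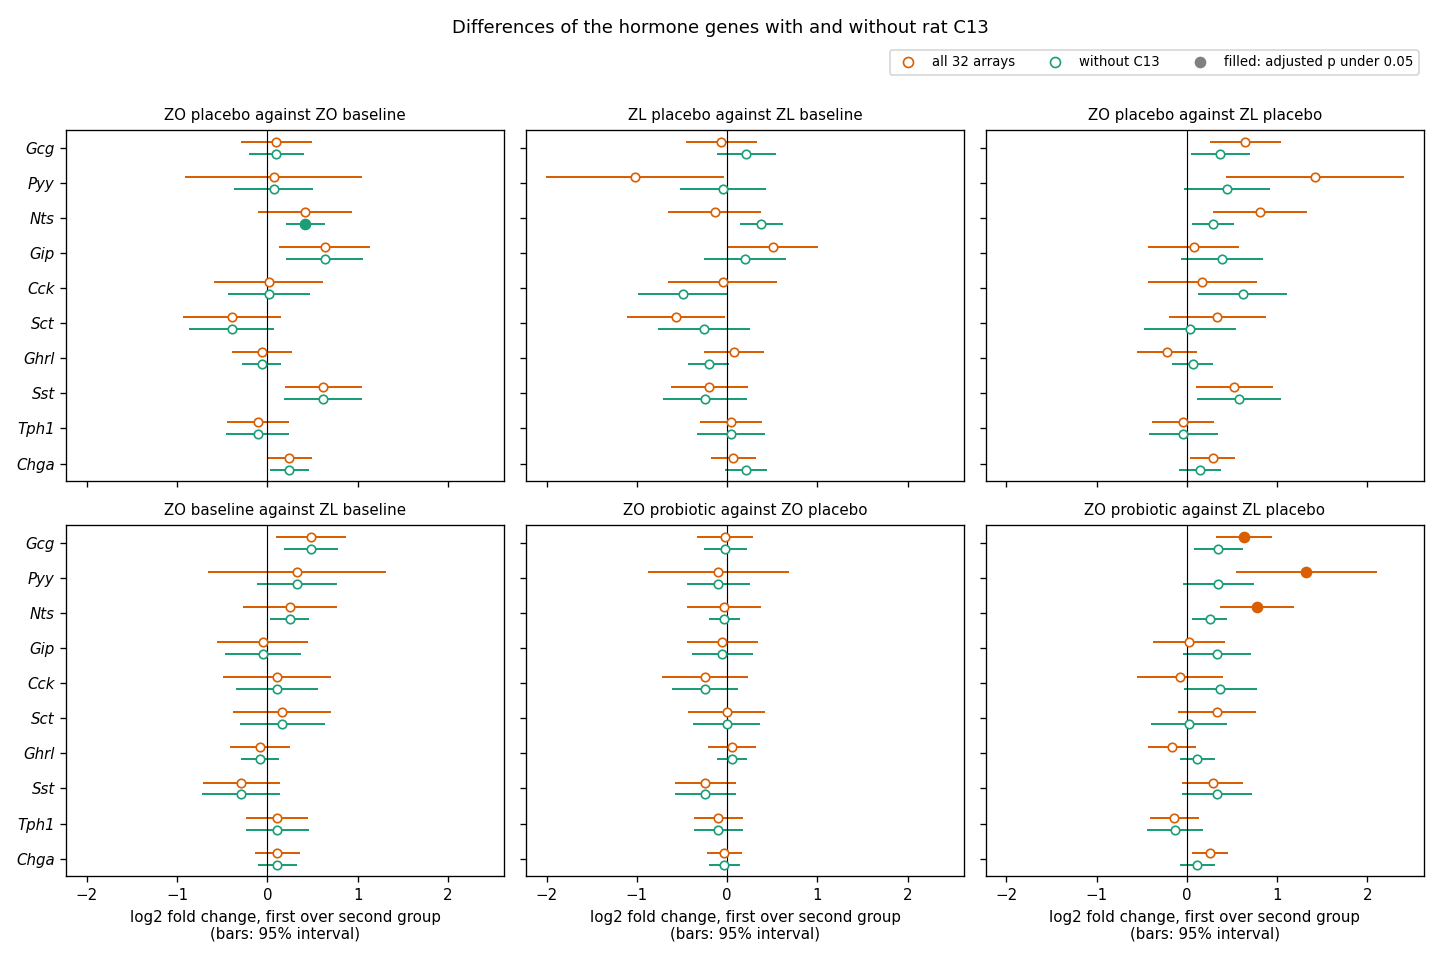
Log2 fold change of each gene, first over second group, with its 95% interval (bars), from all 32 arrays (orange) and without C13 (green), for 6 comparisons; filled points passed at an adjusted p under 0.05. In the comparison of ZO probiotic with ZL placebo rats 3 points are filled with C13 and 0 without it, and *Nts* is filled in ZO rats over 30 days without C13.

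Genes that act with these hormones were read against the share of all probe sets that passed, which was between 0% and 4.66% in the 9 comparisons, so that lists of this size can hold 0 calls without standing apart. Of 10 granin and prohormone processing genes and of 13 other gut peptides, 0 passed in any of the 9 comparisons, with C13 or without it. Of 13 transcription factors only *Rfx6* passed, in the averaged genotype contrast with C13. Of 10 serotonin genes, *Maob*, a monoamine oxidase that degrades amines, was higher after 30 days of placebo in ZO rats (log2 fold change 0.78, adjusted p = 0.0045) and in ZL rats (0.88, adjusted p = 0.00335). *Ddc*, the decarboxylase that completes serotonin synthesis, was lower in ZO probiotic than in ZL placebo rats with C13 (-0.85, adjusted p = 0.008). On C13 *Ddc* was at 9.71, above all other arrays. Of 15 nutrient sensors, *Lpar5*, a receptor of lysophosphatidic acid, was higher over time in ZL rats (0.46, adjusted p = 0.0235), and without C13 it passed only in the contrast averaged over genotypes (0.32, adjusted p = 0.0143). In ZO probiotic against ZL placebo rats, *Ffar2*, a receptor of short-chain fatty acids, was higher (0.52) and *Trpa1*, a cation channel, lower (-0.58) with all arrays. Without C13, *Trpa1* (-0.61), *Gnat3*, the taste G protein gustducin (-1.36), and *Ffar3*, another receptor of short-chain fatty acids (-1.06), were lower. *Gnat3* is also a tuft cell marker, and of 8 tuft cell markers 5 were lower in this comparison without C13 and 0 higher, among them *Alox5ap* (-1.26), *Pou2f3* (-1.23) and *Dclk1* (-1.16). With C13, *Alox5ap* (-1.16) and *Plcb2* (-0.71) were lower. The list had a mean level of 5.16 to 7.07 in ZO probiotic rats and 6.76 to 7.69 in ZL placebo rats without C13. Of 18 receptors and peptidases, the GIP receptor *Gipr* was higher (0.44) and the peptidase *Mme* lower (-0.58) in that comparison with C13. Without C13 neither passed, and *Dpp4*, the peptidase that inactivates GLP-1 and GIP, was lower (-0.23, adjusted p = 0.0488). *Npy1r*, a receptor of neuropeptide Y and peptide YY, was lower over time averaged over genotypes without C13 (-0.30, adjusted p = 0.0355).

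Markers of the cells around them were read beside these results. Of 5 goblet cell markers *Spink4* was lower in ZO rats after 30 days of placebo (-1.58, adjusted p = 0.0273), and of 8 tuft cell markers *Plcb2* was lower (-0.71, adjusted p = 0.0326). Of 13 proximal markers *Fabp1*, a fatty acid-binding protein of enterocytes, was higher in the same comparison (0.25, adjusted p = 0.0267), and without C13 also *Rbp2*, a retinol-binding protein (0.33, adjusted p = 0.0279). Of 10 colon markers *Best2* was higher in ZO than in ZL rats on placebo with C13 (2.12, adjusted p = 0.0246). With C13 it was also higher in ZO probiotic than in ZL placebo rats (1.75, adjusted p = 0.00632) and in the averaged genotype contrast (1.34, adjusted p = 0.0479). Without C13 *Best2* passed in none of the 9 comparisons. *Plcb2* was lower in ZO than in ZL rats on placebo with C13 (-0.70, adjusted p = 0.0425) and without it (-0.79, adjusted p = 0.0371). Against ZL placebo, ZO probiotic rats had higher *Apoa4* (0.38) and *Fabp1* (0.17) and lower *Slc40a1* (-1.14) among proximal markers with C13, and without it higher *Apoa4* (0.46) and *Fabp1* (0.20). Of 14 stomach and pancreas markers *Cela1* was higher there (0.42), and of 13 neuron and glia markers *Stmn2* was lower (-0.57) with C13 and *Chat* (-0.80) without it. Of 8 enterocyte markers *Vil1* was higher over time averaged over genotypes (0.14, adjusted p = 0.019). Of 9 ileal, 4 Paneth cell and 7 smooth muscle markers 0 passed in the 9 comparisons. The mean level of the enterocyte markers was 12.40 to 12.65 on all arrays. The part of these cells in the values of the hormone genes was not tested.

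Within groups the 10 genes differed in how much they varied between rats. Without C13 the pooled SD was 0.34 for *Sct*, 0.33 for *Cck*, 0.32 for *Pyy*, 0.31 for *Sst* and 0.31 for *Gip*, and 0.15 for each of *Nts*, *Chga* and *Ghrl*, against a median of 0.16 over all probe sets. *Tph1*, the enzyme that starts serotonin synthesis in the gut, had 0.25 and *Gcg* 0.22. With C13 the SD of *Pyy* was 0.72 and that of *Nts* 0.38. The signal of *Ghrl* was low, with a mean of 4.57 over the 31 arrays. The median of all probe sets on each array was 4.79 to 4.97, so the SD and correlations of *Ghrl* come from a weak signal. In the order of the 5 group means without C13, *Gcg* ran from 11.62 in ZO placebo, 11.60 in ZO probiotic and 11.52 in ZO baseline to 11.26 in ZL placebo and 11.04 in ZL baseline rats. *Nts* ran 9.93 in ZO placebo, 9.90 in ZO probiotic, 9.64 in ZL placebo, 9.51 in ZO baseline and 9.26 in ZL baseline rats. Between the second and the third of these the ranges of *Nts* did not overlap, and in all other neighbouring pairs of the 10 genes they did. *Tph1* had its highest mean in ZO baseline rats (7.21) and its lowest in ZO probiotic rats (7.0). *Sct* was highest in ZO baseline rats (6.83) and lowest in ZL placebo rats (6.41).

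Several of the genes moved together between rats of the same group. After group means were removed, 16 of 45 pairs of genes were correlated over the 31 arrays without C13 (permutation within groups, adjusted p under 0.05 over the 45 pairs), 15 positively and 1 negatively. *Pyy* and *Sct* were the closest pair, with Pearson's r = 0.88 and Spearman's rho = 0.88 (permutation p = 1e-05, the smallest the permutations can give, adjusted p = 0.000225), and r = 0.86 without the 2 rats farthest from the median of *Pyy*. *Tph1* correlated with *Pyy* (r = 0.75, rho = 0.75), *Sct* (r = 0.74, rho = 0.69) and *Nts* (r = 0.71, rho = 0.64), with permutation adjusted p between 0.000225 and 0.000675 for r and between 0.00045 and 0.0027 for rho. *Pyy* and *Nts* had r = 0.66 (rho = 0.66), and 0.54 without the 2 farthest rats. *Chga* and *Ghrl* had r = 0.64 (rho = 0.69), and *Gip* and *Sst* r = 0.55 (rho = 0.52). With C13 the r of *Chga* and *Ghrl* was -0.09, and that of *Gip* and *Sst* was 0.51. *Gcg* stood apart. Its single pair past the threshold was the negative one with *Chga* (r = -0.53, rho = -0.44), which was -0.29 without the 2 farthest rats and whose rho did not pass (adjusted p = 0.073). The pairs share the same 31 arrays. The share of correlated pairs among all probe sets was not computed, so the count is not read as particular to these genes. More than 1 probiotic treatment was given, and the labels do not assign treatments to rats. Differences between treatments remain within the ZO probiotic group, and their part in these correlations was not tested. With C13, 8 pairs passed, and with group means kept 13.

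**Figure D4:**
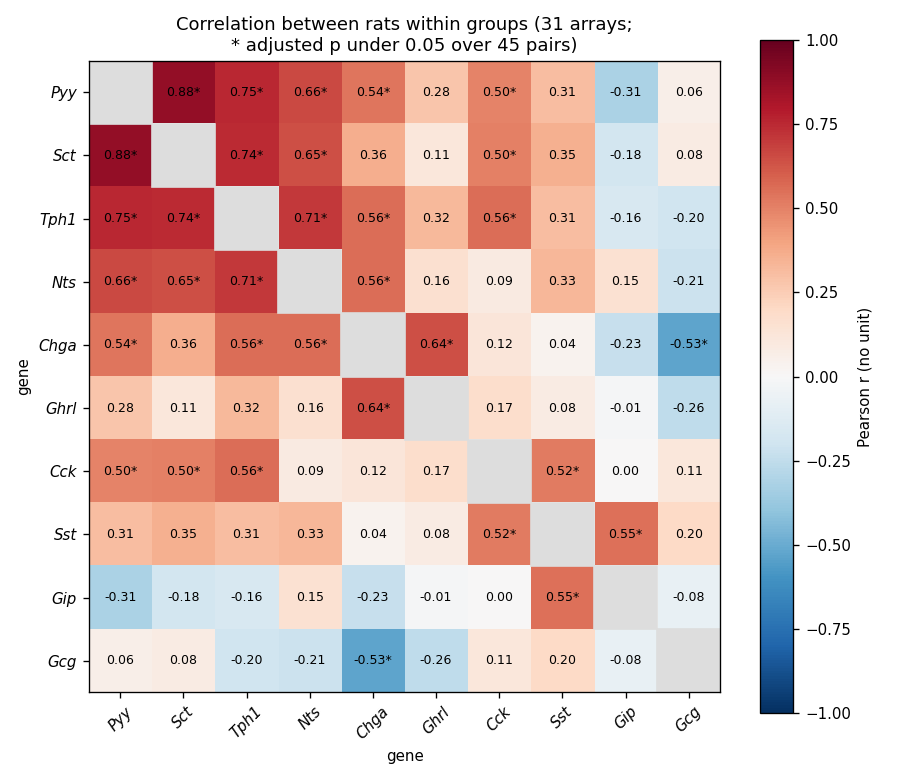
Pearson's r between each pair of the 10 genes over 31 rats after group means were removed (colour and number), with pairs past an adjusted p under 0.05 marked by an asterisk. *Pyy*, *Sct*, *Tph1* and *Nts* form a block of positive values from 0.65 to 0.88, and *Gcg* has values between -0.53 and 0.20.

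Across the 31 arrays, with group means kept, the genes most like each member were searched among 10205 genes with a mean above the median of all probe sets, as a description. *Chga* was most like *Aqp3*, an aquaporin (r = 0.81), *Chgb* (r = 0.81) and *Ncoa6* (r = 0.81). *Tph1* was most like *Sct* (r = 0.74) and *Slc18a1*, a vesicular monoamine transporter (r = 0.73), and *Rab3b* (r = 0.73). *Gip* was most like *Cyp2j4* (r = 0.90), *Cgref1* (r = 0.89) and *Tm4sf5* (r = 0.88). *Gcg* was most like the ribosomal protein gene *Rpl9* (r = 0.88), *Pip4p2* (r = 0.86) and *Glrx3* (r = 0.85). *Pyy* was most like *Serinc3* (r = 0.79), *Tgoln2* (r = 0.78) and *Akirin1* (r = 0.76). *Sct* was most like *Slc44a4* (r = 0.83), *Capn1* (r = 0.79) and *Slc37a1* (r = 0.79), and *Sst* like *Gstm5* (r = 0.81), *Cklf* (r = 0.80) and *Cript* (r = 0.77). *Cck* was most like *C10h17orf49* (r = 0.80), *Timm17b* (r = 0.76) and *Uqcr11* (r = 0.72). *Nts* was most like *Cyp4f1* (r = 0.86 without C13, and 0.15 with it), *Pheta2* (r = 0.84) and *Gpbp1l1* (r = 0.84). *Ghrl* had no gene above r = 0.63 (*Spred3*), followed by *Ubap1* (r = 0.61) and *Crb3* (r = 0.59). The values share arrays and groups, and nothing follows from these values about shared function.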

How the data were processed

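RNA of the intestinal mucosa was hybridised by the authors to Affymetrix Rat Gene 1.1 ST arrays and scanned on a GeneTitan. The methods name RMA, which corrects background, normalizes and summarises each probe set as a log2 value, and the Affymetrix Expression Console is listed in the processing notes of the submitters. Neither the background removal nor the gene-level averaging of the methods was repeated. The deposited values are a score, because nearly all of the 934848 had lost their decimal point (161 kept it), and it was put back by the rule in the report. The choice of tests had assumed log2 values, and they were run after this step. The other placement of the point, nearest to the median of the probe set, would change 8 values of the table and 0 of the 10 genes. Arrays have no read depth, so precision depends on how many rats were measured.

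The platform's table gives a single gene symbol to 18644 of 29214 probe sets. The model was fitted with limma 3.58.1 (R 4.3.3) as 1 model of 5 group means over all 32 arrays, with Benjamini-Hochberg adjustment over all probe sets and no minimum fold. The fit was tested on simulated data only for ZO rats over time and for ZO probiotic against ZO placebo, and the outcome is not given here. Correlations used 100000 permutations within groups (numpy 2.4.6, pandas 2.3.3 in Python 3.11.15). Groups came from the sample titles. Named are the 10 genes, for each the 3 genes most like it, the genes of each list that passed in a comparison (the 4 of largest change where more passed), *Fabp6* and *Slc10a2*. *Gata4*, *Fgf19*, *Chgb*, *Scg2*, *Nmu*, *Aqp8*, *Car4* and *Slc26a3* on C13 fall outside this rule, as do *Ddc* and *Best2* there. Their choice followed a look at the values. The genes, lists and tests were chosen with earlier results of these data known. Alternatives are given in the closing section. *Pcsk1*, *Cpe* and *Insl5* are examples of list genes with no probe set of their own, not analysed here.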

Additional observations from a re-analysis of the deposited data

Results flagged for a closer look

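In the groups of 4 rats, 40 sets of 4 values (10 genes in 4 groups) were examined for a rat far from the other 3, which chance alone gives in about 1 set in 20, and 5 sets were found. In ZL placebo, C13 lay far below the other rats in *Pyy* (5.1721, others 8.99 to 9.13), *Sct* (5.1791, others 6.31 to 6.52) and *Nts* (7.5608, others 9.61 to 9.68). In ZO placebo, Z11 lay far above the others in *Cck* (6.8706, others 5.88 to 6.0). In ZL baseline, C4 lay far below the others in *Tph1* (6.5442, others 7.23 to 7.35).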

How the results depend on the processing

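Of 2110 log2 fold changes of the 10 genes under alternatives, 2081 kept their side of the threshold, 18 lost and 11 gained a call, and 0 reversed with a call, while 119 changed sign with no call. Quantile normalization, median centring and the other decimal placement changed no count of genes that passed. Array weights gave 2 genes for ZO rats over time (main 0), 1 for ZO probiotic against ZL placebo (main 3), 0 for the averaged genotype contrast (main 1) and 1 for the averaged 30-day contrast (main 0). A model of only the groups compared gave 1 for ZO probiotic against ZL placebo and 0 for the averaged genotype contrast. Without the lowest 30% of probe sets the averaged 30-day contrast had 1. Leaving out 1 rat at a time covered the 16 rats not given a probiotic and, of the ZO probiotic rats, only Z46. It gave 0 to 1 genes for ZO rats over time and 0 to 1 for ZO against ZL on placebo. For ZO probiotic against ZL placebo it gave 0 to 3, and for each of the averaged genotype and averaged 30-day contrasts 0 to 1. Genes with separate ranges were 2 without C13 in ZL rats over time (main 0) and 5 in ZO against ZL on placebo (main 3). With C13, 8 pairs of genes were correlated (main 16). Averaging probe sets changed nothing, since each gene had 1.

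Rat numbers shared by ZO and ZL groups did not pair the rats: deviations correlated between -0.04 and 0.23. With the number as a replicate block, 0 genes passed in both genotype comparisons, as without it. The methods' t-test called 4 genes over time in ZO rats and 0 in ZL rats, against 4213 and 2717 of 29214 probe sets, and after Benjamini-Hochberg 0 and 0 genes, against 28 and 1 probe sets.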
